A study of Mus musculus with 11 samples.

Results

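The growth factor genes Areg, Pdgfa and Csf1 and the growth factor receptor gene Flt1 were measured in corneas of mice kept under desiccating stress (DS), a dry eye model in which scopolamine and a drafty, dry cage reduce tears. The 4 genes were picked by name from the 248 genes of the NanoString mouse Inflammation panel, a probe-counting assay, and all 4 were found in both deposited tables, under the names AREG, PDGFA, CSF1 and FLT1. All 11 samples came from female C57BL/6 mice after 5 days of DS with eye drops given 2 times a day. The drops held vehicle (3 samples), the pan-Trk agonist pan at 10 μM (4 samples) or the TrkC agonist C1 at 10 μM (4 samples), and no unstressed cornea is among them. One age label gives 3 months for all 11 samples, while a second puts the 4 C1 samples and pan replicate 4 at 22 to 24 months and the other 6 samples at 2 to 3 months. The study's methods give a single young age range for all mice that ends below 3 months. Both the first label and the higher range of the second go against it. Trk receptors are the tyrosine kinase receptors of the neurotrophins. The study calls its samples biological replicates, and whether a sample holds the corneas of 1 mouse or of a pool is not given in the sources used here. The labels name both cornea and corneal epithelia, and none of the 5 corneal epithelial markers looked for (Krt12, Krt5, Krt14, Pax6 and Cdh1) is on the panel, so that label could not be checked. The choice of the 4 genes was made with the C1 against vehicle result in view, where Areg had been among the genes with the smallest p. That comparison is therefore given as a description without a p-value, while pan against vehicle and C1 against pan were tested. These comparisons share samples with it.

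Amphiregulin, the product of Areg, is made as a membrane-bound precursor and released by proteolytic shedding, after which it binds the EGF receptor, which drives migration and proliferation of corneal epithelial cells during wound closure. Pdgfa encodes the platelet-derived growth factor A chain, an epithelial signal to stromal fibroblasts, and Csf1 encodes macrophage colony-stimulating factor, on which macrophages depend for survival. Flt1 encodes a receptor of vascular endothelial growth factor, and its soluble form binds that factor in the cornea, a tissue kept free of vessels.

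Sequence around the transcription start is shown for Areg and Flt1, since of the 4 genes they alone held the full cyclic AMP response element (CRE, TGACGTCA, read the same on both strands), the site bound by CREB. The windows of 300 bases run from 250 bases before to 50 after the start (RefSeq, GRCm38.p6). Areg lies on the plus strand at chr5:91139349-91139648 and Flt1 on the minus strand at chr5:147725962-147726261. Capitals mark the CRE and the TATA box (TATAAA).
Areg: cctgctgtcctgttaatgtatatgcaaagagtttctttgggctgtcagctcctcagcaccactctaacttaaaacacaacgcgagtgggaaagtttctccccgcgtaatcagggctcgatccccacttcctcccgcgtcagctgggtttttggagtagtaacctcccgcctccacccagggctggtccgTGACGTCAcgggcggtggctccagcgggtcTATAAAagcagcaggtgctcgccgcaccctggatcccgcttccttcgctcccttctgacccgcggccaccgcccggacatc
Flt1: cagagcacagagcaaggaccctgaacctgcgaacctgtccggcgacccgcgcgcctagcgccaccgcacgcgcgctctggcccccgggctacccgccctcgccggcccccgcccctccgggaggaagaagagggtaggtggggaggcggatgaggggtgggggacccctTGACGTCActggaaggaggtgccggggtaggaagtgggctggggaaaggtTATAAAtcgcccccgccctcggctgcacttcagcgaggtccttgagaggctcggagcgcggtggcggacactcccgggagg
The CRE covered bases -61 to -54 before the start of Areg and -81 to -74 before that of Flt1, and in both genes the TATA box covered bases -31 to -26. A full CRE was present in 1.79% and a TATA box in 13.6% of the 32851 windows of this length in the table, with both strands read, and both motifs together in 0.170%. The shorter site CGTCA, 2 copies of which overlap in the full CRE, was present in 20.8% of windows. It also occurred in 1 of the 2 windows of Pdgfa, whereas the window of Csf1 held none of these 3 motifs. The GC box GGGCGG was found in every window of the 4 genes and in 35.7% of all windows, and the AP-1 motif TGANTCA in none of theirs and in 7.81% of all. These matches describe the letters of the windows, and no binding was measured.

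A normalized count is the probe count of a gene divided by a housekeeping factor of the sample, and the files give its log2. Totals over the 248 genes ranged from 91955 to 133098 in vehicle, from 64156 to 646446 in pan and from 165828 to 525997 in C1 samples, with pan replicate 4 the highest of all 11. The second age label and the totals move together, and against vehicle neither can be told apart from C1 treatment. In these bulk samples, fewer cells of a type and less RNA per cell cannot be told apart either.

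Areg (gene ID 11839), the member chosen for its difference between C1 and vehicle, had 376, 277 and 289 normalized counts in vehicle replicates 1 to 3, and 380, 322, 293 and 441 in pan replicates 1 to 4. The C1 replicates had 542, 539, 430 and 577 normalized counts. All 4 C1 samples thus exceeded every vehicle sample, while the pan samples overlapped both other groups. Vehicle samples had a mean of 314 ± 54.3 (SD, n = 3), pan samples 359 ± 65.8 (SD, n = 4) and C1 samples 522 ± 63.9 (SD, n = 4). These levels rest on 101 to 188 probe counts in vehicle samples and pan replicates 1 to 3 and on 394 to 1403 in the others, so that counting alone gives an error of 2.67% to 9.95% per sample, below the spread between replicates of 12.2% to 18.3%.

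**Figure D1:**
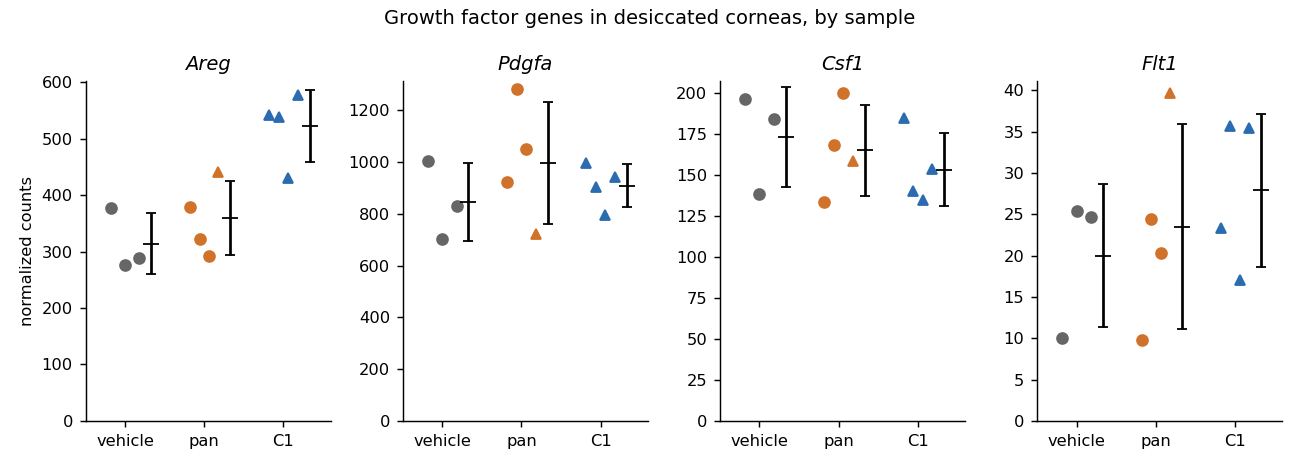
Normalized counts of Areg, Pdgfa, Csf1 and Flt1 (vertical axes from 0) in the vehicle, pan and C1 samples. Points are samples in replicate order, circles with the lower and triangles with the higher age label, and black bars give the mean and SD. All 4 C1 samples lie above the vehicle samples for Areg, whereas the groups overlap for the other 3 genes.

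Against vehicle, the log2 difference of Areg with C1 was 0.74 (standard error 0.17), a level 1.67-fold that of vehicle. Over the panel, 15 of 248 genes (6.05%) had all C1 samples above all vehicle samples, Areg among them, and from this comparison nothing is read for the members. With pan, the log2 difference of Areg was 0.19 (standard error 0.24, adjusted p = 0.795 from limma) with a 95% interval from -0.38 to 0.75, and 2 of 4 pan samples exceeded all vehicle samples. It was 0.33 without vehicle replicate 1, 0.10 without vehicle replicate 2 and 0.083 without pan replicate 4. The direct comparison of the agonists at the same dose and time, the only pair of compounds here, gave a level 1.46-fold higher with C1 than with pan. Its log2 difference of 0.55 had a standard error of 0.20 and a 95% interval from 0.09 to 1.01. After adjustment over all 248 genes this fell short of the threshold (limma adjusted p = 0.272), with 3 of 4 C1 samples above the highest pan sample. A two-sided exact permutation test gave p = 0.0571, where 4 samples against 4 allow no less than 0.0286.

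Age label and depth moved with Areg. The 5 samples with the higher age label had 430 to 577 normalized counts of Areg and the 6 others 277 to 380, without overlap. This held for 2 of 248 genes (0.806%), Areg and Smad7, which encodes an inhibitor of TGF-beta signalling. Of these 11 values, 7 are those of the C1 and vehicle samples on which Areg was chosen, so the share is a description from which nothing is read. Pan replicate 4 exceeded the mean of the other pan samples by 0.42 on the log2 scale. Within the higher age label, the mean of the C1 samples was 0.23 above pan replicate 4, with 3 of 4 C1 samples above it, a value without a test. Without pan replicate 4, the C1 against pan difference was 0.65 (adjusted p = 0.160 from limma). When the 3 groups were fitted together with log2 total count as a term, the log2 difference of Areg was 0.42 in C1 against pan and 0.59 in C1 against vehicle.

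Markers of other cells were also compared between the agonists. In pan replicates 1 to 3, 60 to 85 of the 248 genes had at most 3 probe counts, against 1 to 26 in C1 samples. All 8 macrophage genes looked for (Tyrobp, Trem2, C1qa, C1qb, Mrc1, Cd163, C3ar1 and Itgb2) were on the panel and had higher means with C1 than with pan, with 0 of 8 passing the test in limma, a median log2 difference of 0.72 against 0.23 over all genes. Their summed level was 262 to 369 normalized counts in C1, 161 to 229 in pan and 222 to 357 in vehicle samples, where Trem2 had at most 3 probe counts in every sample. The 3 stromal genes Twist2, C1s and C1ra summed to 140 to 215 with C1, 81.1 to 139 with pan and 134 to 158 with vehicle. In C1 against pan, 0 of these 3 passed in limma. The part of these cells in the Areg difference was not tested. Since 181 of 248 genes were higher with C1 than with pan, samples were also centred on the median of the 131 genes whose log2 values averaged 5 or more. The median of these genes was 0.14 higher with C1, and relative to it the difference of Areg was 0.41 (adjusted p = 0.436 from limma).

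Within a sample, the ratio of 2 probe counts does not depend on the housekeeping factor. The count of Areg over that of Csf1 was 1.92, 2.00 and 1.57 in vehicle, 2.85, 1.91, 1.46 and 2.79 in pan and 2.94, 3.85, 3.19 and 3.76 in C1 samples. The lowest C1 ratio, 2.94, was just above the 2.85 of pan replicate 1, and how often other ratios part the groups was not computed. Csf1 itself had a log2 difference of -0.10 in C1 against pan and of -0.17 in C1 against vehicle. The Areg values of C1 and vehicle are those on which Areg was chosen, so nothing is read from the ratios. For Areg over Pdgfa, vehicle samples ranged from 0.349 to 0.393, C1 samples from 0.540 to 0.613 and pan samples from 0.251 to 0.612. The upper end of the pan range was pan replicate 4, the others being at or under 0.412. Both ratios were chosen after the values of Areg were seen.

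Pdgfa (gene ID 18590) had 1005, 703 and 831 normalized counts in vehicle, 922, 1284, 1052 and 721 in pan and 996, 902, 796 and 941 in C1 samples. The 3 groups overlapped, and pan samples spread the most, from the highest level of all in pan replicate 2 down to that of pan replicate 4. The mean was 846 ± 152 (SD, n = 3) in vehicle, 995 ± 236 (SD, n = 4) in pan and 909 ± 84.5 (SD, n = 4) in C1 samples. The log2 difference with pan was 0.22 (standard error 0.27, adjusted p = 0.787 from limma), with a 95% interval from -0.41 to 0.84. It was 0.084 without pan replicate 2, 0.091 without vehicle replicate 2, 0.35 without vehicle replicate 1 and 0.36 without pan replicate 4. Between C1 and pan it was -0.10 (standard error 0.22, adjusted p = 0.790 from limma), with a 95% interval from -0.60 to 0.39. This direction changed to 0.071 with the total count as a covariate and to 0.029 without pan replicate 2, and the difference was -0.25 without pan replicate 4. Against vehicle, C1 had a log2 difference of 0.11 (standard error 0.17), which was -0.012 without vehicle replicate 2 and 0.25 without vehicle replicate 1. Pan replicate 4 was 0.58 below the other pan samples on the log2 scale (-0.58), opposite in direction to Areg in the same sample.

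Csf1 (gene ID 12977) varied least, with a 1.502-fold range between the lowest and the highest of the 11 samples. It had 196, 138 and 184 normalized counts in vehicle, 133, 168, 200 and 158 in pan and 184, 140, 135 and 153 in C1 samples. The group means were 173 ± 30.6 (SD, n = 3), 165 ± 27.7 (SD, n = 4) and 153 ± 22.2 (SD, n = 4), and the groups overlapped throughout. The log2 difference with pan was -0.07 (standard error 0.24, adjusted p = 0.942 from limma, 95% interval from -0.63 to 0.50). Its direction turned to 0.032 without vehicle replicate 1 and to 0.031 without pan replicate 1, and median centring gave 3.7e-04. Between C1 and pan the log2 difference was -0.10 (standard error 0.20, adjusted p = 0.776 from limma, 95% interval from -0.56 to 0.35), and between C1 and vehicle it was -0.17 (standard error 0.18). The first was -0.0047 without pan replicate 3 and -0.20 without pan replicate 1, and the second -0.070 without vehicle replicate 1 and -0.32 without vehicle replicate 2. The macrophage genes described above, whose cells depend on this factor, had a median log2 difference of -0.48 with pan against vehicle, with 1 of 8 above 0, and of 0.32 with C1 against vehicle, with 7 of 8 above 0. In limma, 0 of these 8 genes passed in any of the 3 comparisons.

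Flt1 (gene ID 14254) was the lowest and least precisely counted member. It had 10.0, 25.4 and 24.7 normalized counts in vehicle, 9.74, 24.4, 20.3 and 39.6 in pan and 23.4, 35.8, 17.0 and 35.4 in C1 samples. The highest sample was pan replicate 4 and the lowest pan replicate 1, and the groups overlapped. The value of pan replicate 1 rests on 3 probe counts (exact Poisson 95% interval 0.619 to 8.77), the limit that a count of 0 allows, and that of vehicle replicate 1 on 5 (1.62 to 11.7), whereas pan replicate 4 had 126. These intervals cover counting error alone. The mean was 20.01 ± 8.67 (SD, n = 3) in vehicle, 23.5 ± 12.4 (SD, n = 4) in pan and 27.9 ± 9.26 (SD, n = 4) in C1 samples. The mean of the 62 genes with the lowest levels on the panel, a measure of background, was 5.001 to 11.1 normalized counts per sample.

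The log2 difference of Flt1 with pan was 0.18 (standard error 0.53, adjusted p = 0.942 from limma), with an interval from -1.04 to 1.40. It turned to -0.26 without vehicle replicate 1 and to -0.13 without pan replicate 4, and without pan replicate 1 it was 0.55. Between C1 and pan the difference was 0.35 (standard error 0.43, adjusted p = 0.676 from limma, 95% interval from -0.63 to 1.34). It was -0.017 without pan replicate 1, 0.66 without pan replicate 4 and -0.14 with the total count as a covariate. Between C1 and vehicle it was 0.53 (standard error 0.42) as deposited, 1.02 after subtraction of the background mean and -0.06 with that covariate, and without vehicle replicate 1 it was 0.092. In both tested comparisons the 95% interval included 0, and C1 against vehicle was not tested. The part of depth in the spread between samples was not tested either. None of the 4 endothelial markers looked for (Pecam1, Cdh5, Kdr and Tek) is on the panel.

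**Figure D2:**
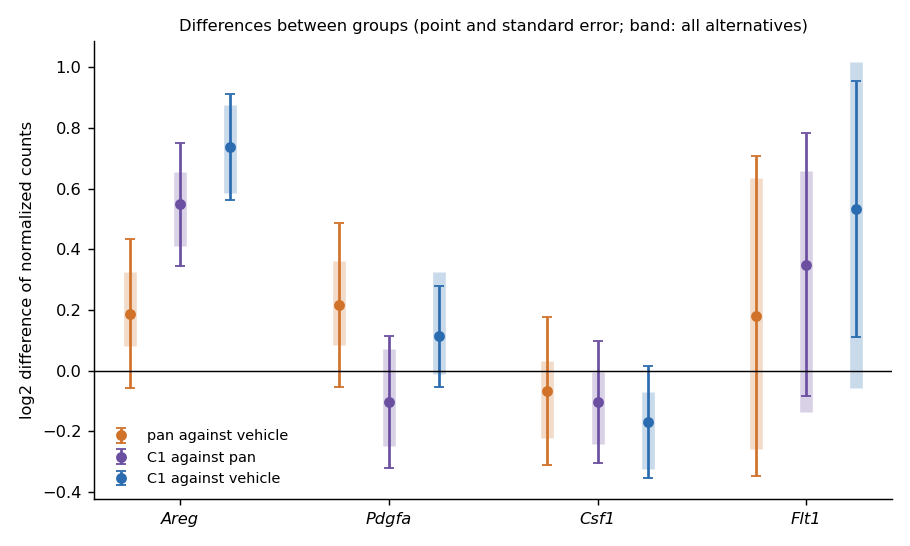
Log2 differences of normalized counts between groups for the 4 genes, with points and error bars giving the limma estimate and its standard error, and pale bands the range over all alternative settings and samples left out. The bands of Flt1 cross 0 in the 3 comparisons, and those of Areg stay above it, as does the band of Pdgfa in pan against vehicle, while those of Csf1 stay below 0 in both comparisons of C1. Areg was chosen on C1 against vehicle, so its band there is a description.

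Over the 4 genes, 0 passed an adjusted p of 0.05 in pan against vehicle, where 5 of 248 genes (2.02%) did in limma and 31 had an unadjusted p under 0.05. In C1 against pan, 0 of the 4 passed and 1 of 248 (0.403%) did, with 38 at an unadjusted p under 0.05, Areg among them. In C1 against vehicle, 0 of 248 genes (0%) passed in limma and 26 had an unadjusted p under 0.05. None of the 4 had all pan samples above all vehicle samples (2.42% of the panel) or all C1 samples above all pan samples (7.66%). The median log2 difference over all genes was -0.20 with pan against vehicle and -0.02 with C1 against vehicle.

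**Figure D3:**
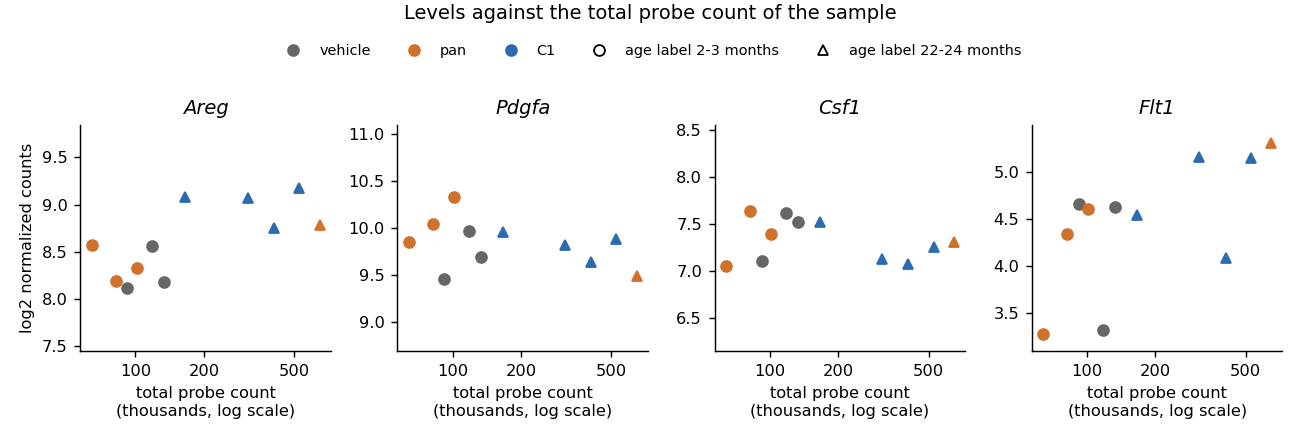
Log2 normalized counts of each gene (vertical axes of equal length) against the total probe count of the sample on a log axis, with groups in colours and the age label in symbols. The 5 samples with the higher totals and age label have the highest Areg levels, from 430 to 577 normalized counts.

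The levels of the 4 genes did not run in parallel over the samples. Pearson's r of the log2 values over the 11 samples was 0.48 for Pdgfa with Csf1, 0.30 for Areg with Flt1 and between -0.24 and 0.01 for the other pairs. Against the log2 total count it was 0.70 for Areg, 0.62 for Flt1, -0.39 for Pdgfa and -0.26 for Csf1. These r, like those that follow, describe samples that share depth, age label and treatment, and no p is given.

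For each gene, the 3 most similar of the 128 other genes averaging 5 or more on the log2 scale were taken by Pearson's r over the 11 samples. For Areg they were Smad7 (0.75), Alox15 (0.73), which encodes a lipoxygenase, and Ptger4 (0.69), which encodes the prostaglandin E2 receptor EP4. Taken as deviations from the group means, these r fell to 0.30, 0.37 and 0.53, so that much of the likeness lay in differences between the groups. For Pdgfa the nearest genes were Hmgn1 (0.91), a nucleosome-binding protein gene, Rapgef2 (0.84), encoding a guanine nucleotide exchange factor, and Hif1a (0.82), encoding the oxygen-regulated subunit of a hypoxia transcription factor. Their r in deviations from the group means were 0.92, 0.87 and 0.85, the first being the highest of the 128 genes by this measure too. Csf1 was nearest to Stat3 (0.81), Map3k1 (0.76) and Ptk2 (0.71), which encode a transcription factor and a pair of kinases. Flt1 was nearest to Ptgs1 (0.69), Alox15 (0.65) and Pla2g4a (0.61), all of which encode enzymes of arachidonic acid release or oxidation. Alox15 was among the nearest genes of both Areg and Flt1, and its own r with the log2 total count was 0.69.

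**Figure D4:**
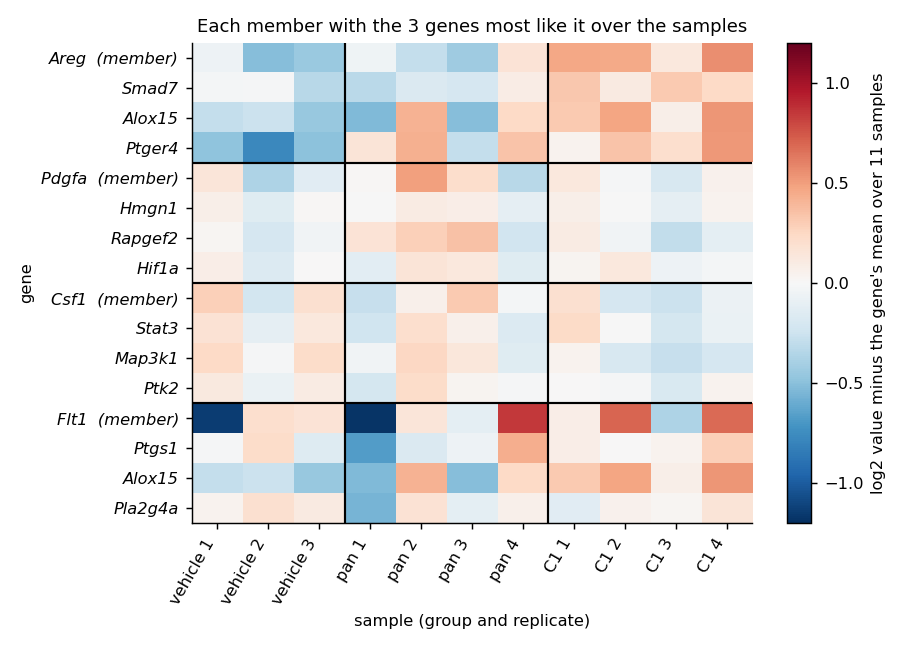
Log2 values minus the mean of each gene over the 11 samples (colour scale, red above and blue below the mean) for each of the 4 genes and, under it, the 3 genes most similar to it. Columns are samples by group and replicate. The rows around Areg are red in the C1 samples and those around Pdgfa vary within the groups, with pan replicate 2 high for Pdgfa.

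Genes of the pathways around these factors were read from fixed lists. Of 5 other growth and colony-stimulating factors (Csf2, Csf3, Tgfb1, Tgfb2 and Tgfb3), 0 passed the test in any comparison by limma. All 5 had lower means with pan than with vehicle, at a median log2 difference of -0.31 against -0.20 over all genes, where 75 of 248 genes were above 0. In C1 against vehicle, which uses the same 3 vehicle samples, 0 of 5 were above 0 against 117 of 248 genes (median -0.29 against -0.02). Tgfb3, a transforming growth factor beta gene, had 28.5 ± 5.50 normalized counts (SD, n = 4) in pan, 49.7 ± 15.4 (SD, n = 4) in C1 and 62.9 ± 34.6 (SD, n = 3) in vehicle samples. It was higher with C1 than with pan by 0.77 on the log2 scale (standard error 0.26, limma adjusted p = 0.256). All 4 C1 samples were above all pan samples, as for 19 of 248 genes (7.66%). Its log2 difference in pan against vehicle was -1.02 (standard error 0.37, limma adjusted p = 0.268). Csf2, encoding granulocyte-macrophage colony-stimulating factor, had 1 to 10 probe counts, and Csf3, encoding the granulocyte factor, 1 to 26.

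Of the route from growth factor receptors to the kinase ERK, 5 genes are described singly, and 0 of the 5 passed the test in limma in the comparisons given. Elk1, an ERK target, had a log2 difference of -0.49 in pan against vehicle (standard error 0.30, adjusted p = 0.550 from limma) and of 0.56 in C1 against pan (standard error 0.28, adjusted p = 0.365). The tables give the row named ELK1 the gene ID of the potassium channel gene Kcnh8, so its identity is uncertain. Mapk3, the gene of ERK1, differed by -0.48 in pan against vehicle (standard error 0.28, adjusted p = 0.517 from limma). Shc1, an adaptor of activated receptors, differed by 0.35 in C1 against pan (standard error 0.25, adjusted p = 0.555 from limma). In C1 against vehicle the log2 difference was -0.16 for Hras1 (standard error 0.12) and 0.15 for Myc (standard error 0.17).

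Prostaglandin E2 raises cyclic AMP through some of its receptors, EP4 among them, and so activates CREB, the factor that binds the CRE shown above. Of the 5 genes of this route (Ptgs2, Ptger2, Ptger4, Gnas and Creb1), 0 passed the test in any comparison by limma, and 2 of 5 were above 0 with pan against vehicle (75 of 248 over the panel), 3 of 5 with C1 against pan (181 of 248) and 4 of 5 with C1 against vehicle (117 of 248). The medians were -0.11, 0.11 and 0.24, against -0.20, 0.23 and -0.02 over all genes. Ptger4 differed by 0.74 with pan (standard error 0.25, adjusted p = 0.239 from limma) and by 0.85 with C1 (standard error 0.16, adjusted p = 0.211), with all 4 samples of each agonist above vehicle. The same held for 6 of 248 genes (2.42%) with pan and for 15 of 248 (6.05%) with C1. Areg had differences of 0.19 and 0.74 in these comparisons, which share their vehicle samples. With pan, the limma interval of Areg from -0.38 to 0.75 includes the difference of Ptger4. Whether Areg and Ptger4 differ from each other was not tested. Ptgs2, the inducible cyclooxygenase gene, was at 8.61 ± 4.83 normalized counts (SD, n = 4) in pan, 16.0 ± 3.70 (SD, n = 4) in C1 and 13.8 ± 5.23 (SD, n = 3) in vehicle samples, and differed by 1.08 between C1 and pan (standard error 0.46, adjusted p = 0.312 from limma). Gnas, which encodes the stimulatory G protein subunit, differed by 0.49 in C1 against pan (standard error 0.30, adjusted p = 0.459 from limma), and Ptger2, with 1 to 37 probe counts, by -0.54 in C1 against vehicle (standard error 0.92).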

How the data were processed

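Probe counts of 248 genes in 11 corneal samples were scaled by the authors in ROSALIND to each sample's housekeeping probes (geometric mean) and deposited as log2 values in 2 tables (pan with vehicle, C1 with vehicle). Both tables hold the same vehicle values. Per table, 4 further columns deposited by the authors (mean, log2 fold change, p-value, adjusted p) describe their own comparison and were not used here. Every value was a whole multiple of one step per sample (tolerance 0.01), taken as 1 count. The tables' names were kept. The gene IDs of 247 genes were found in RefSeq, 238 of them under the same symbol.

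Each pair of groups was fitted with limma 3.58.1 (lmFit, eBayes) in R 4.3.3, using the deposited log2 values with no filter, pseudocount or covariate, with Benjamini-Hochberg adjustment over 248 genes. Standard errors and 95% intervals are limma's. Exact permutation tests used scipy 1.17.1 in Python 3.11.15. The fit was tested on simulated data. The members, lists and alternatives were chosen with earlier results of these data known. Named genes were the 4 members, for each the 3 genes of highest Pearson r, and in each list every gene that passed and the 2 with the largest difference per comparison. The age label split, the value within the higher age label and the count ratios were added after seeing the data. The endothelial, epithelial, T cell, stromal and macrophage markers were fixed lists. Promoter windows are those of RefSeq, GRCm38.p6. Counts over the list of genes from growth factor receptors to ERK are not reported here.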

Additional observations from a re-analysis of the deposited data

How the results depend on the processing

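None of the 4 genes passed an adjusted p of 0.05 in pan against vehicle or C1 against pan under any alternative run. Areg kept its direction throughout, from 0.08 to 0.33 in pan against vehicle, 0.41 to 0.65 in C1 against pan and 0.59 to 0.87 in C1 against vehicle. Areg was chosen on C1 against vehicle, where all 4 C1 samples exceeded every vehicle sample, so leaving out any sample could not change that direction. Directions changed for Csf1 in pan against vehicle with median centring (3.7e-04; -0.22 to 0.032 with one sample left out), and for Flt1 there (-0.26 to 0.55 with one sample left out). In C1 against pan they changed for Pdgfa with the total count as a covariate (0.071; -0.25 to 0.029 with one sample left out) and for Flt1 (-0.14; -0.017 to 0.66). The cause was not tested. Flt1 fails the filter on a mean log2 value of 5. Genes called in pan against vehicle numbered 5, and 2 without moderation or with a floor of 20 normalized counts, 1 with that filter, 3 with background subtraction or voom weights, 8 with the covariate and 1 to 7 with one sample left out (1 without vehicle replicate 2 or 3). The covariate was fitted with the 3 groups together, and that fit without it gave 6 calls here. In C1 against pan the 1 call became 2 with the floor and 0 with a mean-dependent or robust prior, median centring, a pseudocount of 10, one fit of 3 groups, the covariate or voom weights, and 0 to 1 with one sample left out. In C1 against vehicle the 0 calls became 2 with a mean-dependent prior, 4 with the filter and 1 with background subtraction.

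Samples share only a replicate number, since same-numbered samples did not all deviate together (r from -0.05 to 0.57 over 131 genes in C1 against pan). The replicate block left the 4 genes uncalled and the calls at 5, 1 and 0. In pan against vehicle it drops pan replicate 4, which has no partner, and gave -0.13 for Flt1.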

Other observations

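The panel holds 5 T cell genes of the fixed list (Cd4, Cd40lg, Il2, Il17a and Ifng), whose summed level was 41.5 to 47.7 normalized counts in vehicle, 22.7 to 36.6 in pan and 27.5 to 48.8 in C1 samples. In pan against vehicle 1 of the 5 passed an adjusted p of 0.05 in limma, against 2.02% of the panel, while 2 of the 5 were above 0 and the median log2 difference was -0.48 against -0.20 over all genes. The gene that passed was Ifng, the interferon gamma gene, with 2.93 ± 0.359 normalized counts (SD, n = 4) in pan and 15.6 ± 3.29 (SD, n = 3) in vehicle samples (limma adjusted p = 0.00246). It had 1 to 22 probe counts per sample, and both means are under the floor of 20 normalized counts tried as an alternative. In pan replicates 1 to 3, 1 probe count equals 2.44 to 3.25 normalized counts, so the pan mean of 2.93 lies near 1 count there. That mean is also under the background mean of every pan sample. The SD in pan therefore says little about the spread of Ifng, and the size of the difference is uncertain. In C1 against vehicle 0 of 5 passed. The 3 stromal genes had median log2 differences of -0.37 with pan against vehicle and 0.41 with C1 against vehicle, and 0 of 3 passed in either. For the 4 members, their most similar genes and the list genes given with a difference (27 genes), none of the 54 groups of 4 samples held a sample that stood apart under Dixon's test (2.7 would be expected by chance).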
